A study of Homo sapiens with 6 samples.

Results

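Genes of the extracellular proteolysis machinery were followed across 22Rv1 cells given Drug_0120, Drug_CN27 or vehicle. The set held 10 of the 20297 genes in the deposited expression table, taken by symbol: the secreted metalloproteinases MMP1, MMP3, MMP10 and MMP13, the membrane-anchored MMP14 and MMP15, the inhibitors TIMP1 and TIMP2, the urokinase gene PLAU and the urokinase receptor gene PLAUR. Measured values entered this choice, because MMP1 and MMP10 had been seen to be much higher with Drug_0120 than with Vehicle. Drug_0120 and Vehicle levels of all 10 genes are therefore given as a description without a test, and likewise MMP1 and MMP10 in Drug_0120 and Drug_CN27.

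22Rv1 is an established human prostate cancer epithelial cell line. Polyadenylated RNA was sequenced from 6 libraries in 3 groups of 2: Drug_0120 (0120-0018 in the treatment protocol), Drug_CN27 and Vehicle, the control cells of the same line given vehicle alone. The series concerns small molecules directed at the linker histone variant H1-10. Each compound was given at its own IC50, and neither concentrations nor exposure times are given in the sources used here, so doses of the compounds are not known to match.

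Matrix metalloproteinases are zinc enzymes, made as inactive precursors, that cut collagens, laminins, fibronectin and many cell-surface proteins. Tissue inhibitors of metalloproteinases bind the active enzymes and block them, while urokinase, held at the cell surface by its receptor, turns plasminogen into plasmin, which cuts matrix and activates several metalloproteinase precursors. In prostate and other carcinomas these genes are known for their part in invasion, and much of their protein is often made by stromal cells around the tumour, which a cell line culture lacks. No protein or enzyme activity was measured here.

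The values are TPM, a transcript share, which are scaled for gene length and library total and keep no sequencing depth, so the depth behind them is unknown. Log2 changes were taken on log2(TPM + 1), which understates how far low genes moved. The test was limma on the 13606 genes that reached 1 TPM in 2 or more libraries, with Benjamini-Hochberg adjustment over all of them, and a gene is called where the adjusted p is under 0.05. Of the 10 genes, 9 passed this filter, and MMP1, MMP3 and MMP13 passed it only through their Drug_0120 libraries. PLAU did not pass.

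The table's sum left 28.8% and 28.0% of the TPM to genes outside it in the Drug_0120 libraries. It left 19.6% and 18.3% in Drug_CN27 and 19.3% and 18.1% in Vehicle. Across all tested genes the median log2 change was -0.10 for Drug_0120 against Vehicle and 0.15 for Drug_CN27 against Vehicle. It was -0.26 for Drug_0120 against Drug_CN27. With all libraries scaled to equal sums of the table, which evens out this difference, these medians were 0.06, 0.15 and -0.10. Beyond that scaling, the part of the difference in the log2 changes was not tested. Summed TPM of 8 prostate luminal markers was 1238 and 1249 in Drug_0120, 2113 and 2156 in Drug_CN27, and 2196 and 2223 in Vehicle and 7 or 8 of the 8 reached 1 TPM in every library. Of other cell types, the 3 basal markers summed to at most 0.183 TPM, with KRT5 and KRT14 at 0 in all libraries. The 9 fibroblast markers summed to 28.8 to 30.3 TPM in Drug_0120, 25.4 to 27.6 TPM in Drug_CN27 and 31.9 to 33.6 TPM in Vehicle, with FAP at 0 throughout. LUM carried most of that sum, at means of 22.8 TPM in Drug_0120, 14.6 TPM in Drug_CN27 and 21.6 TPM in Vehicle. DCN fell to 0.121 TPM in Drug_0120 and 0.179 TPM in Drug_CN27, against 2.26 TPM in Vehicle. COL3A1 fell to 0.168 TPM in Drug_0120 and 0.110 TPM in Drug_CN27, against 1.91 TPM in Vehicle. Both genes passed the filter through their Vehicle libraries alone and so had to differ, and no test is given. COL1A1 went the other way with Drug_CN27, at 11.1 and 11.6 TPM against 6.79 and 6.56 TPM in Vehicle. It was at 5.62 and 5.67 TPM in Drug_0120. PDGFRB, below the filter, was at 0.518 and 0.490 TPM in Drug_0120 against 0.195 and 0.184 TPM in Vehicle. The 6 leukocyte markers summed to 3.42 to 4.27 TPM in Drug_0120, 2.82 to 2.98 TPM in Drug_CN27 and 2.58 to 3.63 TPM in Vehicle, with CD3E at 0 throughout. Within it CD68 was higher in Drug_0120, at 2.48 TPM against 0.619 TPM in Vehicle, and was at 0.353 TPM in Drug_CN27. CD68 passed the filter through Drug_0120 alone and so had to differ, and no test is given. The part of these marker genes in the results was not tested. Fewer cells of a kind and less RNA per cell cannot be told apart in such bulk libraries.

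Promoter windows from RefSeq (GRCh38.p14), 250 bases before to 50 bases after the gene start, were at hand for 6 of the 10 genes. MMP1, MMP3, MMP13 and TIMP2 had no entry. The windows of MMP10, TIMP1 and PLAUR are shown, 5′ to 3′ on the gene's strand, because these genes were called in Drug_CN27 against Vehicle, the comparison that the choice did not use. Capitals mark matches, on either strand, to 3 motifs. TGANTCA is a form of AP-1 type sites and takes in the strict form TGAGTCA. The promoter element TATAAA and AGGAAG, a form of ETS sites longer than their core, were the others. Shorter or other forms of AP-1 and ETS sites were not searched and are not marked.
MMP10, chr11:102780579-102780878, minus strand: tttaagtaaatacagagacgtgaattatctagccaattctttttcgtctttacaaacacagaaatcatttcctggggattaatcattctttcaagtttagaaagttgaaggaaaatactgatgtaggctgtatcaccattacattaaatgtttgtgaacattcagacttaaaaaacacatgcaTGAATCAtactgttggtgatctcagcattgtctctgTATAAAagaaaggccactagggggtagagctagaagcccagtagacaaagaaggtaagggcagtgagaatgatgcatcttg
TIMP1, chrX:47582186-47582485, plus strand: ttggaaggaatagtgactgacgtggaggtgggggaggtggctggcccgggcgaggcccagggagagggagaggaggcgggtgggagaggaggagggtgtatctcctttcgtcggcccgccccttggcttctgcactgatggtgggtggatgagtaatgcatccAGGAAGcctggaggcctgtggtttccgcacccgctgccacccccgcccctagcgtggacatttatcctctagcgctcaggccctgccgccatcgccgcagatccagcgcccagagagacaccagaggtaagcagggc
PLAUR, chr19:43670120-43670419, minus strand: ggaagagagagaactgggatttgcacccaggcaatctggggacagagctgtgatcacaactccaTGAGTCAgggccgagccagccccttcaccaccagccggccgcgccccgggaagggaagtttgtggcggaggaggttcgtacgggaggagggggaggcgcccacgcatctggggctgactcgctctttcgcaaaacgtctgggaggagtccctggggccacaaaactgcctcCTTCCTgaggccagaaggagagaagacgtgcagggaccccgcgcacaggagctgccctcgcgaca
In MMP10 the AP-1 type match TGAATCA begins at position -67 from the gene start and TATAAA at -31. In PLAUR the strict form TGAGTCA begins at -186 and CTTCCT, the reverse complement of AGGAAG, at -15. TIMP1 held AGGAAG at -87 and no match to TGANTCA or TATAAA. Its window also holds tgagtaa, a near form of TGAGTCA outside the search. TGANTCA was present in 7.72% of all 34943 windows of this length, TGAGTCA in 4.96%, TATAAA in 11.6% and AGGAAG in 33.7%. These matches describe the letters of the windows and are no measure of factor binding.

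MMP1 encodes interstitial collagenase, which cuts fibrillar collagens. It was at 213 and 212 TPM in the Drug_0120 libraries, 0.442 and 0.654 TPM in the Drug_CN27 libraries, and 0.428 and 0.242 TPM in the Vehicle libraries. Both Drug_0120 libraries were therefore high, while all 4 others were below 1 TPM and the Drug_CN27 and Vehicle values lay close together without overlapping. The ratio of mean TPM was 634 for Drug_0120 over Vehicle and 388 for Drug_0120 over Drug_CN27, with log2 changes of 7.32 and 7.11. By mean TPM, MMP1 ranked 478 of 20297 genes in Drug_0120, 13859 in Drug_CN27 and 14160 in Vehicle. Between Drug_CN27 and Vehicle the log2 change was 0.21 ± 0.11 (SE), with a 95% interval of -0.04 to 0.47 and an adjusted p of 0.115 in limma. With a pseudocount of 0.1 in place of 1 that change was 0.59 and passed (limma adjusted p = 0.0471).

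MMP10 encodes stromelysin-2, which cuts proteoglycans, laminin and fibronectin and can activate precursors of collagenases. Its level was 318 and 324 TPM in Drug_0120, 5.68 and 5.57 TPM in Drug_CN27, and 0.840 and 1.35 TPM in Vehicle. The 3 groups were fully separated, in the order Drug_0120, Drug_CN27, Vehicle. Mean TPM was 294 times higher in Drug_0120 than in Vehicle and 57.1 times higher than in Drug_CN27, with log2 changes of 7.28 and 5.60. MMP10 ranked 263 by mean TPM in Drug_0120, 10665 in Drug_CN27 and 12828 in Vehicle. In the comparison that the choice did not use, MMP10 rose with Drug_CN27, at 5.62 ± 0.0752 TPM against 1.09 ± 0.358 TPM in Vehicle (SD, n = 2 each), a ratio of 5.15. The log2 change was 1.67 ± 0.11 (SE), with a 95% interval of 1.41 to 1.93 and a limma adjusted p of 5.17e-06. MMP10 was the secreted metalloproteinase with the highest mean in each of the 3 groups, among the 4 in the set.

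MMP3 encodes stromelysin-1, the close relative of MMP10. It was at 5.24 and 4.92 TPM in Drug_0120, 0.0572 and 0.0671 TPM in Drug_CN27, and 0.0304 and 0.0905 TPM in Vehicle. The Drug_0120 libraries stood apart, and the Drug_CN27 values lay inside the Vehicle range. MMP3 was thus much lower than MMP10 in every library, at 60.6 and 65.8 times less TPM in Drug_0120, 99.2 and 83.1 times less in Drug_CN27 and 27.6 and 14.9 times less in Vehicle. Its log2 change was 2.52 for Drug_0120 against Vehicle and 0.00 for Drug_CN27 against Vehicle (95% interval -0.23 to 0.23, limma adjusted p = 0.982).

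MMP13 encodes collagenase-3, another fibrillar collagen protease. It was at 2.42 and 2.02 TPM in Drug_0120, at 0.0557 TPM and listed at 0 in Drug_CN27, and at 0.102 and 0.145 TPM in Vehicle. Again the Drug_0120 libraries were the high ones, and both Drug_CN27 libraries lay below both Vehicle libraries. The log2 change was 1.52 for Drug_0120 against Vehicle and -0.13 for Drug_CN27 against Vehicle (95% interval -0.38 to 0.12, limma adjusted p = 0.321).

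**Figure D1:**
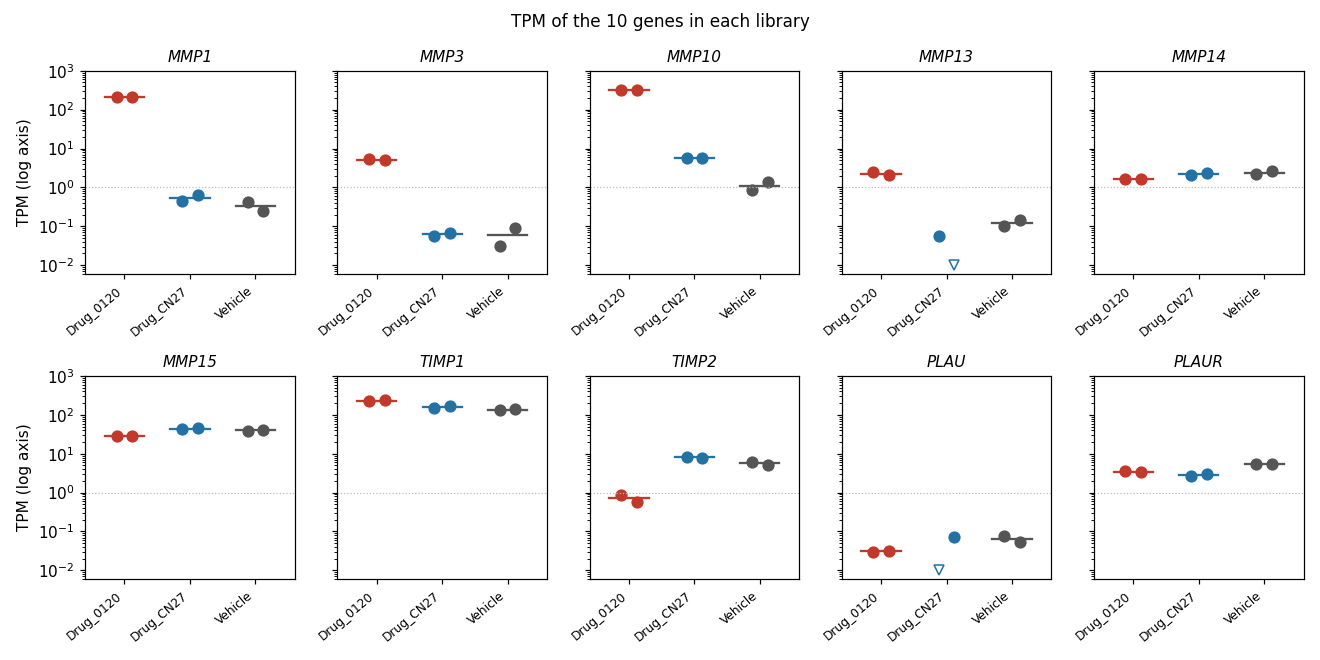
TPM of the 10 genes in each library, 1 panel per gene on a log axis, with Drug_0120 left of Drug_CN27 and Vehicle; points are libraries, bars the mean of 2 (none where a library is at 0), open triangles libraries listed at 0 and the dotted line 1 TPM. MMP1, MMP3, MMP10 and MMP13 are highest in Drug_0120, TIMP2 is lowest there, and only MMP10 also separates Drug_CN27 from Vehicle by a ratio over 5.

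Added together, the 4 secreted metalloproteinases came to 538 and 543 TPM in Drug_0120, 6.23 and 6.29 TPM in Drug_CN27, and 1.40 and 1.82 TPM in Vehicle. Nearly all of the Drug_0120 sum was MMP10 and MMP1. The ratio of MMP10 to MMP1 was 1.49 and 1.53 in Drug_0120, 12.9 and 8.52 in Drug_CN27, and 1.97 and 5.55 in Vehicle, so the genes were nearest to equal in Drug_0120. The Vehicle ratios rest on MMP1 values well below 1 TPM and differ widely between the libraries.

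The likeness of other genes to MMP1 and MMP10 was measured as the root-mean-square difference of centred log2(TPM + 1) profiles over the 6 libraries, among 10694 genes with a mean of at least 5 TPM. Nearest to MMP1 were ARC at 0.487, CES1 at 0.572, CGA at 0.647, MMP10 at 0.720 and GADD45B at 1.23. Nearest to MMP10 were CES1 at 0.437, CGA at 0.659, MMP1 at 0.720, ARC at 0.835 and EID3 at 0.840. These genes share the pattern by which they were selected, high in Drug_0120: CES1, a carboxylesterase gene, averaged 97.0 TPM in Drug_0120, 0.824 TPM in Drug_CN27 and 0.104 TPM in Vehicle. ARC, known as an immediate-early gene of neurons, averaged 147 TPM in Drug_0120, 0.706 TPM in Drug_CN27 and 1.12 TPM in Vehicle.

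MMP1, MMP3, MMP10 and MMP13 lie in a cluster of metalloproteinase genes on chromosome 11, with the order MMP7, MMP20, MMP27, MMP8, MMP10, MMP1, MMP3, MMP12, MMP13 in RefSeq. The members occupy consecutive measured places except for MMP12, the macrophage elastase gene. MMP12 was at 0.344 and 0.597 TPM in Drug_0120, at 0.0373 TPM and listed at 0 in Drug_CN27, and at 0.0336 TPM and listed at 0 in Vehicle, below the filter. The 4 cluster genes on the other side of MMP10 had group means below 0.1 TPM in every group. Outside the cluster, 6 flanking genes were tested for Drug_0120 against Vehicle, of which 3 rose and 3 fell. In that comparison 81.5% of all tested genes were called. On the MMP7 side, BIRC2, an inhibitor of apoptosis gene, rose by 1.47 on the log2 scale (limma adjusted p = 1.6e-06), and on the MMP13 side DYNC2H1, a ciliary dynein gene, fell by 1.62 (limma adjusted p = 2.86e-06). In Drug_CN27 against Vehicle, where 70.4% of all tested genes were called, 3 of the flanking genes rose and 2 fell. YAP1, a transcriptional coactivator gene, was at 0.85 (limma adjusted p = 2.96e-05). TMEM123 was lower in Drug_0120 than in Drug_CN27, at -0.94 (limma adjusted p = 2.23e-05).

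**Figure D2:**
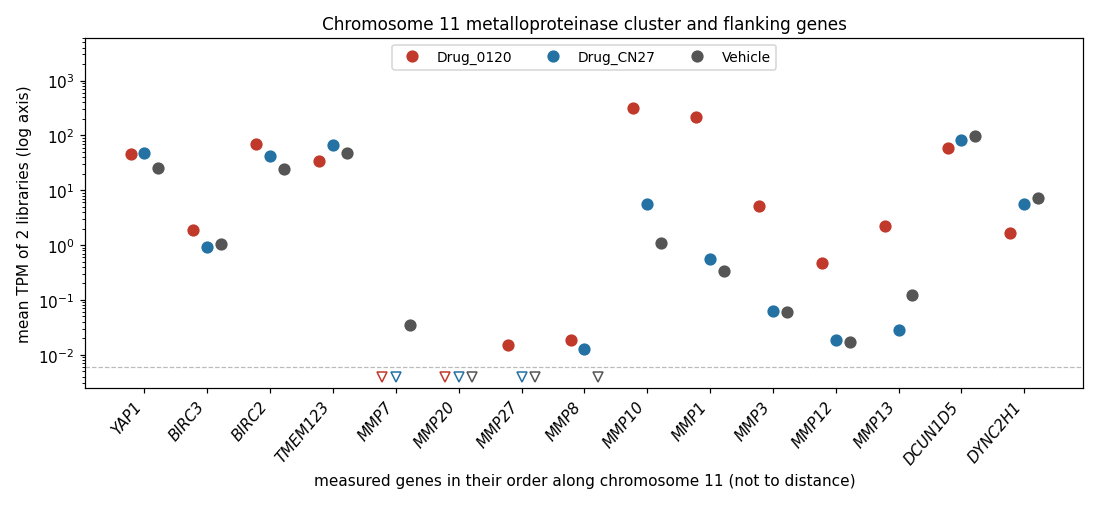
Mean TPM of 2 libraries per group (log axis) for the 15 measured genes of the chromosome 11 cluster and its flanks, in chromosomal order and not to distance; open triangles under the dashed line mark means of 0. MMP10, MMP1, MMP3, MMP12 and MMP13 are highest in Drug_0120, while the flanking genes are higher or lower by smaller ratios.

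Shared or overlapping sequence limits the values of MMP1, MMP3 and MMP10, and none was found for MMP13. Of 50-base words in the transcripts, 2.88% of those of MMP3 and 3.36% of those of MMP10 occur in both, and MMP1 shares none with either. Reads from the shared stretches cannot be assigned to MMP3 or MMP10 alone, and how they were counted is not given in the sources used here. In Drug_0120, MMP3 averaged 5.08 TPM beside 321 TPM for MMP10. How much of that MMP3 value, and so of its change, came from shared stretches was not tested. Exons of MMP1 and MMP3 also overlap those of the opposite-strand pseudogene WTAPP1, over 7.61% and 1.56% of their exon bases, and the strand setting of the counting is not given in the sources used here.

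MMP14 encodes the membrane-type metalloproteinase that activates the MMP2 precursor together with TIMP2. It was at 1.66 and 1.68 TPM in Drug_0120, 2.14 and 2.39 TPM in Drug_CN27, and 2.16 and 2.62 TPM in Vehicle. The Drug_0120 libraries were the lowest, and Drug_CN27 and Vehicle overlapped. Drug_CN27 against Vehicle gave a log2 change of -0.05 (95% interval -0.30 to 0.20, limma adjusted p = 0.698). Drug_0120 against Drug_CN27 gave -0.29 ± 0.11 (SE), with a 95% interval of -0.54 to -0.04 and a limma adjusted p of 0.0387. That call did not hold under median-of-ratios scaling (-0.09, limma adjusted p = 0.482), under scaling to equal sums (-0.17, limma adjusted p = 0.178) or without any single one of the 4 libraries compared (limma adjusted p from 0.0542 to 0.159).

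MMP15 encodes a second membrane-type enzyme, and was the most abundant metalloproteinase of the 6 in Vehicle and in Drug_CN27. Its level was 27.8 and 29.2 TPM in Drug_0120, 42.4 and 46.1 TPM in Drug_CN27, and 39.5 and 41.9 TPM in Vehicle. The Drug_0120 libraries lay below all others, and the Drug_CN27 libraries lay just above the Vehicle libraries. MMP15 fell in Drug_0120 against Drug_CN27, with a log2 change of -0.62 ± 0.07 (SE), a 95% interval of -0.78 to -0.45 and a limma adjusted p of 6.98e-05. Relative to the median of all tested genes in that comparison its change was -0.36. Drug_CN27 against Vehicle gave 0.12 (95% interval -0.05 to 0.28, limma adjusted p = 0.177), and -0.06 under median-of-ratios scaling. In Drug_0120 over Vehicle, MMP14 and MMP15 were lower by the same ratio of mean TPM, 0.70 for each.

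TIMP1, the secreted inhibitor of most soluble metalloproteinases, was among the most abundant transcripts of the set. It was at 221 and 236 TPM in Drug_0120, 152 and 166 TPM in Drug_CN27, and 134 and 138 TPM in Vehicle. The groups did not overlap, in the order Drug_0120, Drug_CN27, Vehicle. TIMP1 rose in Drug_0120 against Drug_CN27, at 229 ± 10.7 TPM against 159 ± 10.0 TPM (SD, n = 2 each), a log2 change of 0.52 ± 0.06 (SE; 95% interval 0.37 to 0.67, limma adjusted p = 9.5e-05). It also rose in Drug_CN27 against Vehicle, by 0.22 ± 0.06 (SE; 95% interval 0.07 to 0.37, limma adjusted p = 0.0153), which is 0.07 above the median of all tested genes. This small change did not pass under median-of-ratios scaling (0.04, limma adjusted p = 0.668), without Drug_CN27 replicate 2 (limma adjusted p = 0.0682) or without Vehicle replicate 1 (limma adjusted p = 0.0856).

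TIMP2, which inhibits metalloproteinases and also links MMP14 to the MMP2 precursor, ran opposite to TIMP1 in Drug_0120. Its level was 0.854 and 0.588 TPM in Drug_0120, 8.29 and 7.96 TPM in Drug_CN27, and 6.15 and 5.28 TPM in Vehicle. The Drug_0120 libraries were below 1 TPM, and every Drug_CN27 library lay above every Vehicle library. TIMP2 fell in Drug_0120 against Drug_CN27, with a log2 change of -2.41 ± 0.12 (SE; 95% interval -2.68 to -2.14, limma adjusted p = 4.39e-07). It rose in Drug_CN27 against Vehicle by 0.45 ± 0.12 (SE; 95% interval 0.18 to 0.71, limma adjusted p = 0.0083), a call lost without Vehicle replicate 2 (limma adjusted p = 0.0614). The ratio of mean TPM of Drug_0120 over Vehicle was 0.126. An antisense gene overlaps 6.52% of the TIMP2 exon bases, and CEP295NL on the same strand 3.52%.

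TIMP2 made up 0.385% and 0.248% of the TIMP1 and TIMP2 sum in Drug_0120, 5.18% and 4.58% in Drug_CN27, and 4.37% and 3.67% in Vehicle. The inhibitor sum itself was 222 and 237 TPM in Drug_0120, 160 and 174 TPM in Drug_CN27, and 141 and 144 TPM in Vehicle. The sum of the 4 secreted metalloproteinases over this inhibitor sum was 2.42 and 2.29 in Drug_0120, 0.0389 and 0.0362 in Drug_CN27, and 0.00996 and 0.0127 in Vehicle. Secreted protease transcripts thus exceeded inhibitor transcripts in the Drug_0120 libraries and were a small fraction of them in the other 4, a ratio of RNA that says nothing of free enzyme.

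PLAU, the gene of urokinase, was at 0.0295 and 0.0321 TPM in Drug_0120, listed at 0 and at 0.0740 TPM in Drug_CN27, and at 0.0749 and 0.0536 TPM in Vehicle. All 6 libraries were far below the filter and no comparison was made. An opposite-strand gene, C10orf55, overlaps 31.1% of its exon bases.

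PLAUR, the gene of the urokinase receptor, was at 3.52 and 3.46 TPM in Drug_0120, 2.61 and 3.10 TPM in Drug_CN27, and 5.54 and 5.36 TPM in Vehicle. Vehicle was the highest group, and the 3 groups did not overlap. PLAUR fell in Drug_CN27 against Vehicle, with a log2 change of -0.75 ± 0.10 (SE), a 95% interval of -0.98 to -0.51 and a limma adjusted p of 0.000237. The ratio of mean TPM of Drug_0120 over Vehicle was 0.640. Between Drug_0120 and Drug_CN27 the log2 change was 0.22 (95% interval -0.01 to 0.46, limma adjusted p = 0.0759). It passed at 0.45 under median-of-ratios scaling (limma adjusted p = 0.00322), at 0.36 under equal sums (limma adjusted p = 0.0121) and at 0.31 without Drug_CN27 replicate 2 (limma adjusted p = 0.0428).

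In Drug_CN27 against Vehicle, 4 of the 9 genes tested were called: MMP10, TIMP1 and TIMP2 rose and PLAUR fell. The background was high, with 70.4% of all tested genes called, 43.7% higher and 26.6% lower (44.4% among these genes). MMP1, MMP3 and MMP13, which passed the filter only through Drug_0120, were below 1 TPM in all 4 libraries compared, where log2(TPM + 1) leaves little room for a call, so the shares are not read against each other. The median log2 change of the 9 genes tested was 0.12, beside 0.15 over all tested genes. MMP10 had the largest absolute change of the 9.

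In Drug_0120 against Drug_CN27, 7 of the 8 genes other than MMP1 and MMP10 passed the filter, and 6 were called against a background of 75.2% (23.5% higher, 51.7% lower). MMP3 and MMP13, 2 of these 6, had passed the filter through Drug_0120 alone and so had to differ. TIMP1 was higher, MMP14, MMP15 and TIMP2 were lower, and PLAUR was not called. In Drug_0120 against Vehicle 81.5% of all tested genes were called, 36.0% higher and 45.5% lower. As the set was chosen on that comparison, no count of its members is read against it.

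**Figure D3:**
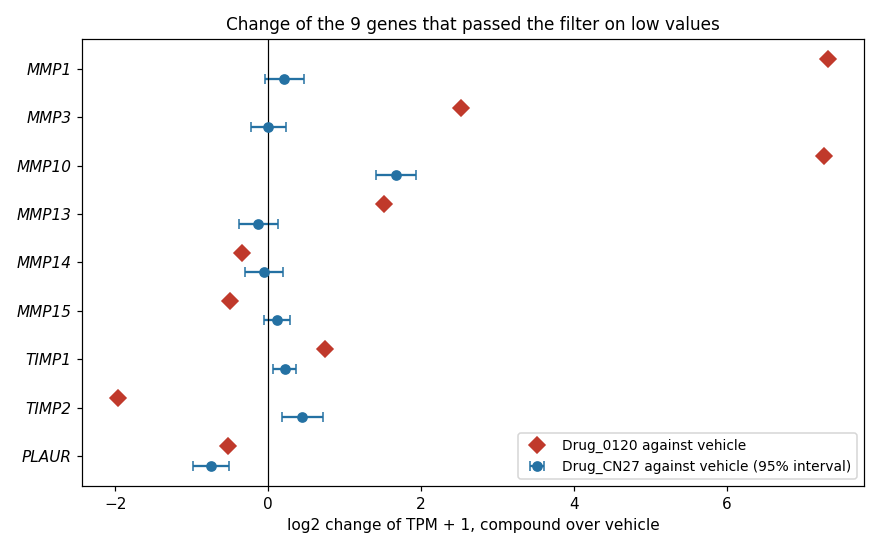
Log2 change in TPM + 1 against Vehicle for the 9 genes tested, with diamonds for Drug_0120 (no interval, since the genes were chosen on it) and circles for Drug_CN27 with 95% intervals from limma. MMP1 and MMP10 lie beyond 7 for Drug_0120, while for Drug_CN27 the circle of MMP10 at 1.67 is the farthest from 0.

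Other genes of the same system were counted from lists chosen by function. Over all tested genes, 36.0% were called higher and 45.5% lower in Drug_0120 against Vehicle, and 43.7% and 26.6% in Drug_CN27 against Vehicle. The list counts below were not tested against these shares. Of 17 other metalloproteinase genes, 6 passed the filter, and none of them rose in Drug_0120 against Vehicle while 5 fell (median log2 change -0.61). MMP17, a membrane-anchored enzyme, averaged 0.280 ± 0.0754 TPM in Drug_0120, 3.35 ± 0.151 TPM in Drug_CN27 and 10.2 ± 1.36 TPM in Vehicle (SD, n = 2 each). It fell with both compounds, with log2 changes against Vehicle of -3.13 for Drug_0120 and -1.36 for Drug_CN27 (limma adjusted p = 5.08e-08 and 1.64e-05). MMP11, stromelysin-3, fell likewise, with log2 changes of -2.59 for Drug_0120 and -1.07 for Drug_CN27 (limma adjusted p = 5.89e-08 and 2.6e-05). In Drug_CN27 against Vehicle 2 of the 6 rose and 3 fell.

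Among other metalloproteinase inhibitors, 2 of 5 passed the filter. A2M, the gene of the broad protease inhibitor alpha-2-macroglobulin, rose with both compounds, at 6.83 and 6.54 TPM in Drug_0120, 5.36 and 4.66 TPM in Drug_CN27, and 0.939 and 1.32 TPM in Vehicle (limma adjusted p against Vehicle = 1.11e-06 and 1.14e-05). RECK, a membrane-anchored inhibitor, had log2 changes of 0.31 with Drug_0120 and 0.37 with Drug_CN27 (limma adjusted p = 0.0295 and 0.0152). Each RECK call was lost when some single libraries were left out, and that for Drug_CN27 also under median-of-ratios scaling.

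Of 12 other plasminogen system genes, 8 were tested, and in Drug_0120 against Vehicle 3 rose and 4 fell. SERPINE2, which inhibits urokinase and thrombin, rose by 1.65 in Drug_0120 against Vehicle (limma adjusted p = 2.58e-07). LRP1, a receptor that clears protease and inhibitor complexes, fell in Drug_0120 against Drug_CN27, with a log2 change of -1.63 (limma adjusted p = 1.29e-06). In Drug_CN27 against Vehicle 3 rose and 3 fell, led by MRC2, a collagen receptor that partners with PLAUR, at 1.25 (limma adjusted p = 8.71e-06) and ANXA2, a plasminogen docking protein, at -1.11 (limma adjusted p = 1.96e-05).

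FURIN, the convertase that activates the precursors of MMP14 and MMP15, was at 69.2 and 63.5 TPM in Drug_0120, 178 and 203 TPM in Drug_CN27, and 54.1 and 54.4 TPM in Vehicle. It rose in Drug_CN27 against Vehicle by 1.79 (limma adjusted p = 5.43e-07) and was lower in Drug_0120 than in Drug_CN27 by a log2 change of -1.51 (limma adjusted p = 5.35e-07). Among 4 tested activators and inducers, the convertase gene PCSK6 was lowest in Drug_0120, at a log2 change of -1.30 against Vehicle (limma adjusted p = 2.11e-06), with PCSK7 at -0.40 (limma adjusted p = 0.00128). BSG, which encodes the metalloproteinase inducer basigin, had a log2 change of 0.18 in Drug_CN27 against Vehicle (limma adjusted p = 0.0206). That call was lost, with a change of sign to -0.0031, under median-of-ratios scaling, and was also lost without Drug_CN27 replicate 2 or either Vehicle library. Membrane serine proteases and their inhibitors numbered 6 tested, of which 5 rose in Drug_CN27 against Vehicle (3 under median-of-ratios scaling), led by PRSS8 at 1.14 (limma adjusted p = 4.87e-06) and HPN, hepsin, at 0.72 (limma adjusted p = 0.000207). HPN was lower in Drug_0120 than in Vehicle at -0.98 (limma adjusted p = 1.63e-05), where SPINT2, an inhibitor of such proteases, was higher at 0.35 (limma adjusted p = 0.0011).

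Of 30 ADAM and ADAMTS genes, 12 were tested, and in Drug_0120 against Vehicle 2 rose and 7 fell (median -0.64). ADAMTS7 fell by 2.07 (limma adjusted p = 2.36e-07) and ADAMTS1 rose by 1.75 (limma adjusted p = 1.52e-07). In Drug_CN27 against Vehicle 5 rose and 5 fell, with ADAMTS7 at -1.52 (limma adjusted p = 4.83e-06) and ADAM17, a sheddase, at 0.94 (limma adjusted p = 2.16e-05). ADAMTS1 was higher in Drug_0120 than in Drug_CN27 by 2.24 (limma adjusted p = 1.24e-07) and ADAM22 was lower at -1.19 (limma adjusted p = 1.06e-05).

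Matrix substrates of these enzymes numbered 18 tested of 23. In Drug_0120 against Vehicle 4 rose and 12 fell, with a median of -0.99. FN1, fibronectin, fell by 2.02 (limma adjusted p = 9.04e-08). In Drug_CN27 against Vehicle 5 rose and 7 fell, led by COL7A1, anchoring fibril collagen, at 1.87 (limma adjusted p = 4.27e-07) and COL3A1 at -1.39. COL3A1 had passed the filter through its Vehicle libraries alone and so had to differ. The laminin genes LAMB3 and LAMB2 separated the compounds most, at 2.37 and -1.63 for Drug_0120 against Drug_CN27 (limma adjusted p = 1.89e-07 and 3.13e-07).

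Factors of the AP-1, ETS and RUNX families, known to act at metalloproteinase promoters, numbered 12 tested of 17, which were 7 FOS and JUN genes and 5 ETS genes. RUNX1 and RUNX2 were below 1 TPM in every library and were not tested. In Drug_0120 against Vehicle 10 rose and 2 fell (median 2.15), and in Drug_CN27 against Vehicle 8 rose and 2 fell (median 1.20). FOS averaged 288 ± 3.93 TPM in Drug_0120, 90.4 ± 3.12 TPM in Drug_CN27 and 13.6 ± 0.222 TPM in Vehicle (SD, n = 2 each), in the same order of groups as MMP10. Its log2 change was 4.30 for Drug_0120 and 2.64 for Drug_CN27 against Vehicle (limma adjusted p = 1.73e-09 and 7.7e-08). JUND rose by 3.27 with Drug_0120 (limma adjusted p = 4.04e-09), and ETV5, an ETS factor, by 2.53 with Drug_CN27 (limma adjusted p = 2.31e-07). FOSL1 was at 10.2 ± 0.0105 TPM in Drug_0120, 0.367 ± 0.360 TPM in Drug_CN27 and 1.15 ± 0.0869 TPM in Vehicle (SD, n = 2 each). FOSL1 and FOSB were higher in Drug_0120 than in Drug_CN27 by 3.05 and 2.14 (limma adjusted p = 7.57e-07 and 1.49e-07). Whether any of these factors acted on the metalloproteinase genes was not tested.

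**Figure D4:**
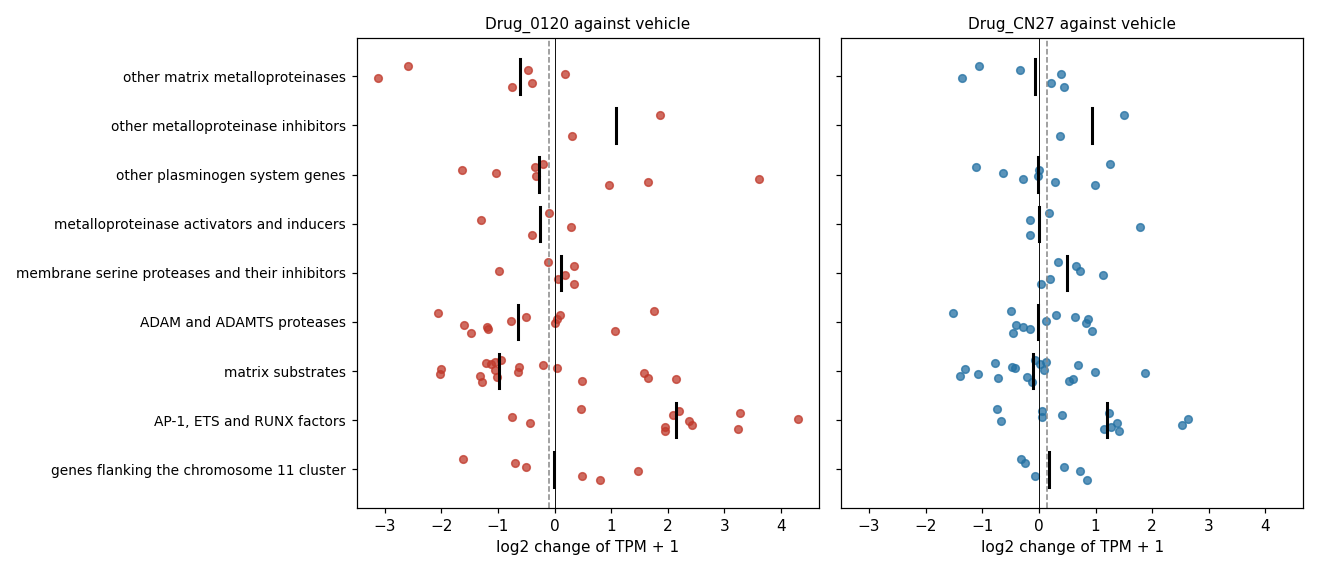
Log2 change in TPM + 1 of the tested genes of each list, Drug_0120 against Vehicle on the left and Drug_CN27 against Vehicle on the right; points are genes, black bars list medians and the dashed line the median of all tested genes. In the row of AP-1, ETS and RUNX factors, where no RUNX gene was tested, most points lie above 0 on both sides, and in Drug_0120 matrix substrates and the other metalloproteinases lie mostly below it.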

How the data were processed

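Polyadenylated RNA of 22Rv1 cells was sequenced in 6 libraries, 2 each for Drug_0120, Drug_CN27 and Vehicle, grouped by GEO's labels. The authors deposited TPM values per gene. STAR, StringTie and the genome build hg19 are named per the submitters' processing notes. No version, annotation release or strand setting was given in the sources used. The table held 20315 rows. The second copy of 18 pseudoautosomal genes was dropped, and 27 symbols turned into dates were restored from their identifiers. TPM keeps no depth, so no counting intervals are given.

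From the deposited TPM, log2(TPM + 1) values were fitted for the 13606 genes that reached 1 TPM in 2 or more libraries, with limma 3.58.1 (lmFit, contrasts.fit, eBayes with trend) in R 4.3.3. All 6 libraries entered a single fit with group as the term, 3 residual and 5.33 prior degrees of freedom. Benjamini-Hochberg adjustment of p-values ran over all of these genes, the threshold was 0.05 and intervals are 95% confidence intervals. No source states that the replicates are separate cultures. The p-values therefore reflect the spread between these libraries alone, possibly a technical spread. Both comparisons with Vehicle share its libraries, and their values are set side by side only.

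The 10 genes and the lists of related genes were chosen with earlier results of these data known. All 10 are described. From each other list, the 2 called genes with the largest absolute log2 change in each comparison are named, and any with a mean of at least 5 TPM could be. Some genes that this rule takes are not reported here. Alternatives were a pseudocount of 0.1, no filter, median-of-ratios scaling, equal sums, a replicate block, a fit of the compared groups alone and leaving out each library. The gene annotation used for exon overlap and shared 50-base words was GENCODE release 29, and promoter windows came from RefSeq (GRCh38.p14), while the deposited values rest on hg19, so no other coordinates are given.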

Additional observations from a re-analysis of the deposited data

How the results depend on the processing

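Results were recomputed under 12 alternatives, except that changes of MMP1, MMP3 and MMP13 have 9 or 10, since alternatives in which they failed the filter give no value. With 2 libraries a group, TPM without depth and 3 residual degrees of freedom, changes of low genes such as MMP3 and MMP13 are the least certain. The count of 6 genes called in Drug_0120 against Drug_CN27, among those other than MMP1 and MMP10, ranged from 3 to 6 when single libraries were left out, with 3 without Drug_0120 replicate 1 or replicate 2. MMP1, MMP3 and MMP13 then failed the filter, so fewer genes were tested, and MMP14 also lost its call. The sign of 3 changes that were never called turned in Drug_CN27 against Vehicle. MMP3 gave -0.0075 under median-of-ratios scaling and -0.038 to 0.044 without single libraries. MMP14 gave -0.15 to 0.048 without single libraries, and MMP15 gave -0.058 under median-of-ratios scaling. The cause was not tested.

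A pseudocount of 0.1 moved the Drug_0120 against Vehicle log2 change to 8.97 for MMP1, 8.10 for MMP10, 5.04 for MMP3, 3.38 for MMP13 and -2.84 for TIMP2, by its construction. Median-of-ratios scaling moved the median of all tested genes to 0.01, -0.01 and 0.02 in Drug_0120 against Vehicle, Drug_CN27 against Vehicle and Drug_0120 against Drug_CN27. Calls in Drug_CN27 against Vehicle were then 4483 higher and 4819 lower, in place of 5948 and 3624. In Drug_0120 against Drug_CN27 they were 5283 higher and 5075 lower, and under equal sums 4332 and 5850, in place of 3200 and 7034. MMP10, TIMP2 and PLAUR kept their calls in Drug_CN27 against Vehicle under both scalings.

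The labels do not say that replicate numbers mark shared batches, and with 2 pairs per comparison they were not taken as pairs. Deviations of same-numbered libraries correlated at 0.164, 0.150 and 0.110. With the replicate block, 11526, 10284 and 10894 genes were called in the 3 comparisons, and no call among the 10 genes changed.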

Other observations

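MMP2, the gelatinase activated by MMP14 and TIMP2, was barely measured. It was at 0.237 and 0.249 TPM in Drug_0120, listed at 0 in both Drug_CN27 libraries, and listed at 0 and at 0.0154 TPM in Vehicle. The Drug_0120 libraries were the high ones, at levels below the filter of 1 TPM, and no test was made. Of the 17 other metalloproteinase genes, 11 were below that filter.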
